A study of Mus musculus with 11 samples.

Results

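The genes described here are 10 plasma cell and antibody secretion genes: Ighm, Igha, Jchain, Mzb1, Derl3, Irf4, Xbp1, Prdm1, Tnfrsf17 and Pou2af1. They were chosen by name, with earlier results of these data known. All 10 were found among the 19938 genes that carry 1 symbol on the array. Their levels were read in lung tissue of 129S1 mice on 11 Affymetrix arrays. The combination group (3 arrays) had aspirin at 4 mg per kg together with triptolide at 1 mg per kg. The triptolide group (3 arrays) had triptolide alone at 1 mg per kg, and the aspirin group (3 arrays) had aspirin alone at 4 mg per kg, each dosed by gavage on 5 days of the week over 2 months. The control group (2 arrays) is labelled untreated, while the treatment protocol names a PBS buffer group, and whether the controls were gavaged is not settled by the labels. The labels give no sex or age, and name no genetic change in any group. They do not say that the arrays of a group come from separate animals, so p-values here speak of the spread among these arrays alone. The study's title concerns suppression of lung cancer, and its design set each regimen against control. Triptolide is a diterpenoid of the thunder god vine that blocks transcription, and aspirin inhibits the cyclooxygenases.

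Plasma cells are B lineage cells that have turned over their protein synthesis to the secretion of antibody. Prdm1, Irf4 and Xbp1 encode the transcription factors that drive this change, and Xbp1 in particular enlarges the endoplasmic reticulum, where heavy and light chains are folded and paired. IgA and IgM are the antibodies of mucosal surfaces, the airway included: the joining chain encoded by Jchain links their units into polymers, which the epithelial receptor encoded by Pigr then carries into the lumen.

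All levels are log2 expression values as deposited, and all differences are log2 differences of group means ± SE of a limma fit over the 11 arrays. With the combination, 8 of the 10 genes stood above both controls on each of its 3 arrays, as did 14.2% of all genes. Their differences of group means were 0.28 to 1.65. The largest differences belonged to the antibody chain genes Ighm and Igha and to Jchain, and Xbp1 and Prdm1 did not share the pattern. Triptolide alone lay between the combination and control for most of these genes. Aspirin alone lay near control, except on the row used for Ighm. None of these differences passed an adjusted p of 0.05 over all genes, so each is given as a value and none as a call. In whole lung, more cells of a type and more RNA per cell cannot be told apart.

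**Figure D1:**
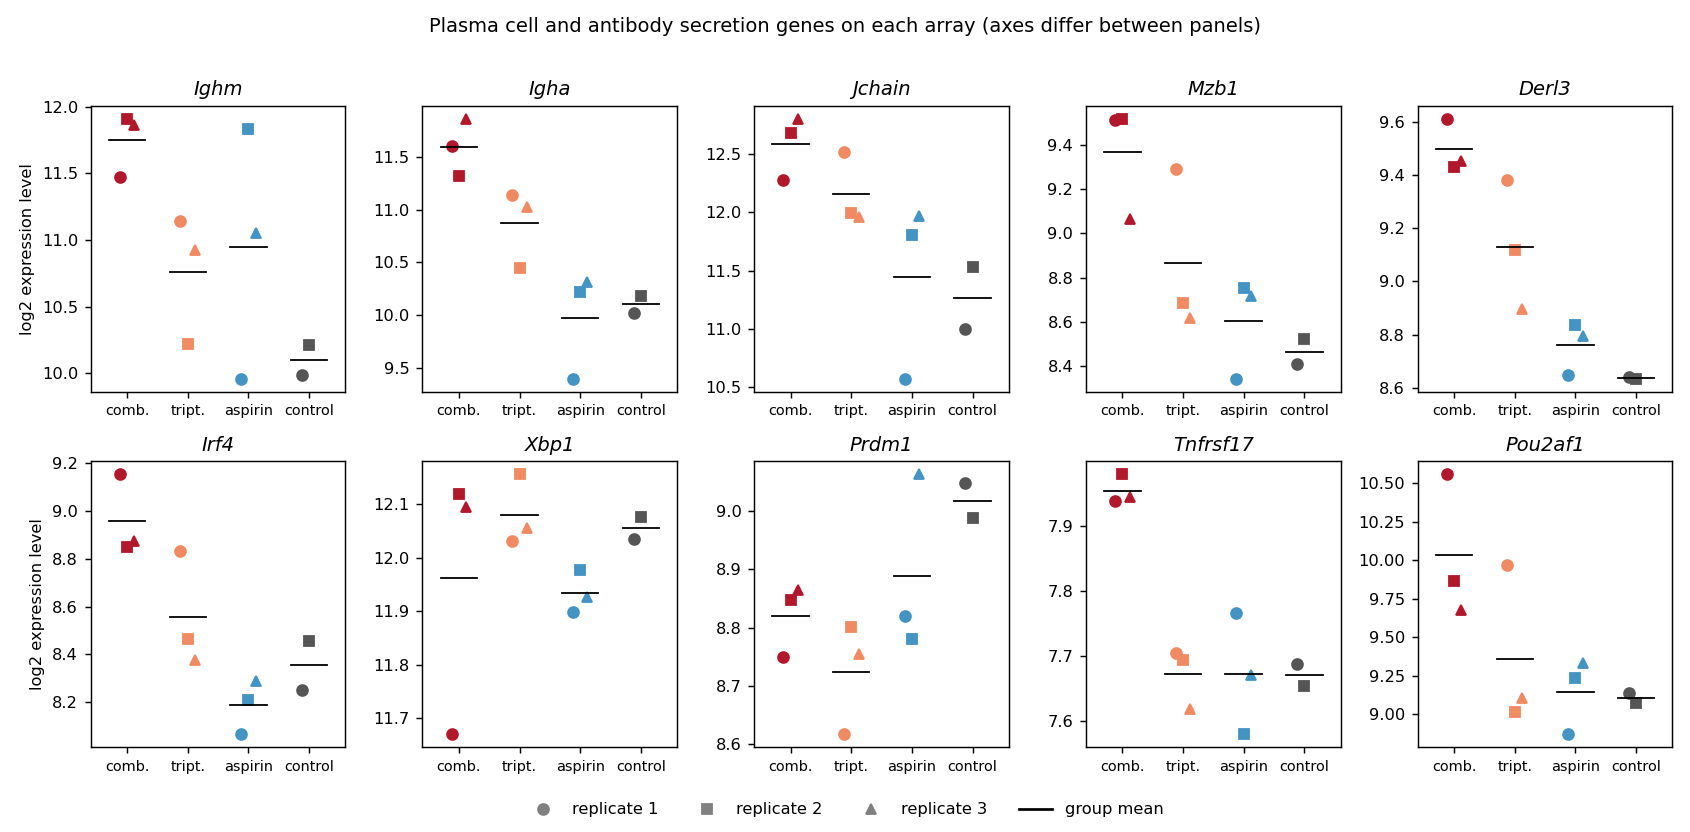
Log2 expression level of each of the 10 genes (vertical axes, which differ between panels) on the combination, triptolide, aspirin and control arrays, with 1 symbol per array and a line at the group mean. In 8 panels the 3 combination symbols lie above both control symbols, as for 14.2% of all genes. Xbp1 overlaps, and Prdm1 lies below control, as for 20.5% of all genes.

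The heavy chain genes come first. Igha, the constant region of the IgA heavy chain, read 11.61, 11.32 and 11.86 on the combination arrays, 11.14, 10.44 and 11.03 with triptolide, 9.39, 10.22 and 10.31 with aspirin, and 10.02 and 10.18 in control. Every array of a triptolide-containing regimen stood above every other array, and the combination arrays stood above the triptolide arrays. The combination exceeded control by 1.50 ± 0.28, a 2.82-fold difference in level with limma's adjusted p at 0.0699. Triptolide alone exceeded control by 0.77 ± 0.28 (unadjusted p = 0.02 in the same limma fit, adjusted p = 1), and aspirin differed from control by -0.13 ± 0.28.

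Ighm, the constant region of the IgM heavy chain, read 11.47, 11.91 and 11.87 with the combination, 11.14, 10.22 and 10.93 with triptolide, 9.96, 11.83 and 11.05 with aspirin, and 9.99 and 10.21 in control. Its 3 aspirin arrays were spread over almost the whole range of the gene, and aspirin 2 reached the level of the combination arrays. The combination exceeded control by 1.65 ± 0.44 (limma, adjusted p = 0.127), while aspirin exceeded control by 0.85 ± 0.44 with overlapping groups. Between the combination and aspirin the groups overlapped as well, at a difference of 0.80 ± 0.39 (limma, unadjusted p = 0.0661).

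Both heavy chain genes are represented by more than 1 array row, and for the combination against control the other rows lay in the same direction. For aspirin against control they did not all do so: the other single-symbol Ighm rows differed by 0.07 and -0.30, beside 0.85 on the row used. On those other Ighm rows every combination array lay above every aspirin array, with differences of 0.96 and 1.52. The 3 single-symbol rows of Ighm differed between combination and control by 1.65, 1.03 and 1.22, and the 2 of Igha by 1.50 and 1.65. A further 4 rows that list Igha with other heavy chain symbols differed by 1.60, 1.26, 1.25 and 1.36. Rows that list several symbols cannot be given to 1 isotype. The position of these probes within membrane or secreted exons is not given in the sources used here.

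Jchain, whose product links IgM and IgA units and is required for their export across epithelium, read 12.283, 12.679 and 12.804 with the combination, 12.516, 11.998 and 11.957 with triptolide, 10.569, 11.805 and 11.969 with aspirin, and 10.998 and 11.533 in control. Triptolide overlapped the combination, and aspirin overlapped both triptolide and control. The combination exceeded control by 1.32 ± 0.37 (limma, adjusted p = 0.141) and triptolide exceeded control by 0.89 ± 0.37 (unadjusted p = 0.034, adjusted p = 1). Among the 10 genes this was the largest difference for triptolide alone.

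Derl3 and Mzb1 act in the endoplasmic reticulum. Derl3 belongs to the derlin family, which takes part in the removal of misfolded secretory proteins, and Mzb1 is a chaperone of antibody assembly in B lineage cells. Derl3 read 9.61, 9.43 and 9.45 with the combination, 9.38, 9.12 and 8.89 with triptolide, 8.65, 8.84 and 8.80 with aspirin, and 8.64 and 8.63 in control. The groups formed an ordered series with no overlap between any neighbours, in which the combination was highest and control lowest. Derl3 had the smallest p of the 10 genes: the combination exceeded control by 0.86 ± 0.13 (95% interval 0.569 to 1.154, 1.82-fold), at an unadjusted p of 5.03e-05, rank 9 of all genes, and limma's adjusted p of 0.0579. Triptolide alone exceeded control by 0.49 ± 0.13 (unadjusted p = 0.0035, adjusted p = 1), and aspirin by 0.12 ± 0.13.

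Mzb1 read 9.52, 9.52 and 9.07 with the combination, 9.29, 8.69 and 8.62 with triptolide, 8.34, 8.75 and 8.72 with aspirin, and 8.41 and 8.52 in control. Triptolide 1 stood within the combination's range, whereas the other triptolide arrays stood just below aspirin 2 and 3. The combination exceeded control by 0.90 ± 0.21 (limma, adjusted p = 0.101) and triptolide exceeded control by 0.40 ± 0.21.

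The transcription factors divided. Irf4, which at high level directs B cells to the plasma cell fate, read 9.15, 8.85 and 8.87 with the combination, 8.83, 8.46 and 8.38 with triptolide, 8.07, 8.21 and 8.29 with aspirin, and 8.25 and 8.46 in control. The combination exceeded control by 0.61 ± 0.15 (limma, adjusted p = 0.107), and aspirin lay 0.16 below control (-0.16 ± 0.15) with overlapping values. Pou2af1, a coactivator that works with octamer-binding factors on antibody genes, read 10.56, 9.87 and 9.68 with the combination, 9.97, 9.02 and 9.11 with triptolide, 8.87, 9.24 and 9.34 with aspirin, and 9.14 and 9.07 in control. Combination 1 was the highest Pou2af1 array, and the difference of 0.93 ± 0.30 from control (limma, adjusted p = 0.2) was 0.67 without that array.

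Xbp1 read 11.67, 12.12 and 12.09 with the combination, 12.03, 12.16 and 12.06 with triptolide, 11.90, 11.98 and 11.93 with aspirin, and 12.03 and 12.08 in control. Combination 1 was the lowest of all 11 arrays and the other combination arrays stood just above both controls. The difference of -0.09 ± 0.13 had a 95% interval of -0.376 to 0.188 (limma, adjusted p = 0.806), and was 0.05 without combination 1. Xbp1 is used by many secretory cells, and its level here does not separate the spliced, active form of its RNA from the unspliced form.

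Prdm1, which encodes the repressor Blimp-1 that shuts off the B cell programme, ran the other way. It read 8.75, 8.85 and 8.86 with the combination, 8.62, 8.80 and 8.76 with triptolide, 8.82, 8.78 and 9.06 with aspirin, and 9.05 and 8.99 in control. Every combination and triptolide array lay below both controls, at -0.20 ± 0.11 for the combination (limma, adjusted p = 0.442) and -0.29 ± 0.11 for triptolide (unadjusted p = 0.0183, adjusted p = 1). Blimp-1 is also made by T cells, myeloid cells and some epithelial and endothelial cells.

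Tnfrsf17, the receptor BCMA through which long-lived plasma cells receive survival signals, read 7.94, 7.98 and 7.94 with the combination, 7.70, 7.69 and 7.62 with triptolide, 7.77, 7.58 and 7.67 with aspirin, and 7.69 and 7.65 in control. Its mean level of 7.75 was the lowest of the 10 genes, beside a median of 8.58 for the means of all genes. Its range over all arrays was the narrowest of the 10 genes at 0.40, and yet the 3 combination arrays stood above the other 8. The combination exceeded control by 0.28 ± 0.08 (limma, adjusted p = 0.17) and exceeded triptolide by 0.28 ± 0.08 (limma, adjusted p = 0.353), whereas triptolide differed from control by 0.00 ± 0.08 (95% interval -0.184 to 0.189). Of the 8 genes above control with the combination, Tnfrsf17 had the smallest difference between triptolide and control.

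**Figure D2:**
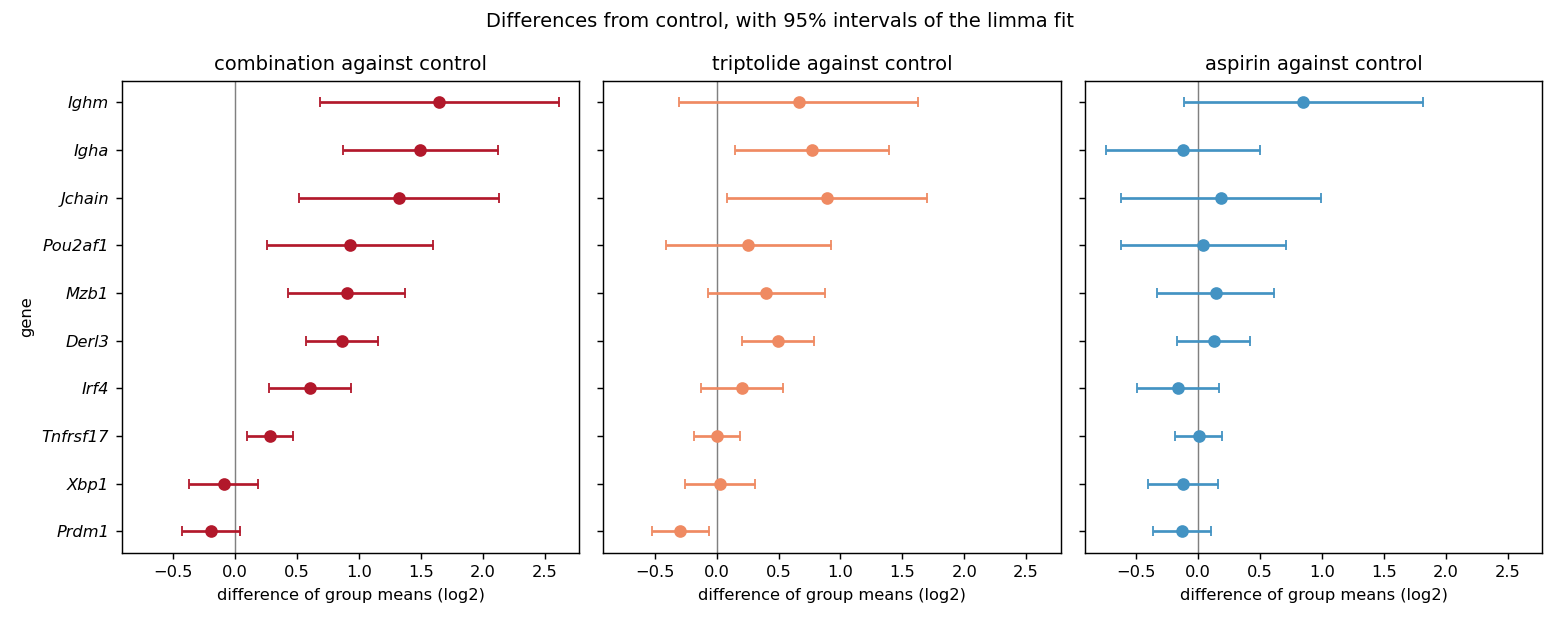
Log2 difference of group means from control (horizontal axes) for the combination, triptolide and aspirin, with 95% intervals of the limma fit, 1 gene per line. The intervals of 8 genes lie above 0 for the combination; for triptolide those of Igha, Jchain and Derl3 do, and Prdm1 lies below 0; for aspirin all 10 cross 0.

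The counts for the combination against control were read beside those for all genes. Because the 10 genes were chosen with earlier results known, these counts and medians describe them and do not test the set. At an adjusted p under 0.05 limma called 0 of 19938 genes (0%) and 0 of the 10 against control, while 8 of the 10 were higher at an unadjusted p under 0.05, against 3.41% of all genes. At an adjusted p under 0.1, Derl3 and Igha were among the 1.47% of genes that passed. The 8 genes whose combination arrays all lay above both controls compare with 14.2% of all genes, and the 1 gene wholly below, Prdm1, with 20.5%. The median difference of the 10 genes was 0.882, beside 0.012 for all genes. Without combination 1, which stood apart from the other arrays, the median was 0.735, with Derl3 at 0.81 (limma, adjusted p = 0.0505), Igha at 1.49 (adjusted p = 0.0652) and Mzb1 at 0.83 (adjusted p = 0.127). Without combination 3, 3 of the 10 genes and 896 genes in all passed an adjusted p of 0.05, and with array weights, which gave combination 1 a weight of 0.149, 7 of the 10 and 1704 in all passed.

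For triptolide against control, limma called 0% of genes and 0 of the 10. At an unadjusted p under 0.05, Derl3, Igha and Jchain were higher, against 1.16% of all genes, and Prdm1 was lower, against 1.66%. All triptolide arrays lay above both controls for 5 of the 10 genes (9.92% of all genes) and below for Prdm1 (13.3% of all genes). The median difference of the 10 genes was 0.328, beside -0.015 for all genes, and it rested in part on triptolide 1: without that array it was 0.127. Triptolide 1 was the highest triptolide array for 8 of the 10 genes and the lowest for Xbp1 and Prdm1. The mean centred level of the 10 genes was 0.259 on triptolide 1, beside -0.144 and -0.07 on the other triptolide arrays.

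For aspirin against control the median difference was near that of all genes. Limma called 0% of genes, none of the 10 had an unadjusted p under 0.05 in the higher direction (1.35% of all genes did), and the median difference was 0.022, beside -0.005 for all genes. Ighm had the largest difference, 0.85 ± 0.44 on the row used, while its other single-symbol rows differed by 0.07 and -0.30. When the Y-linked level, which differs between these groups, entered as a covariate the median was 0.348, and with array weights limma called 535 genes, Ighm among them (adjusted p = 0.0427). Derl3 lay above both controls on every aspirin array (10% of all genes did so) and Xbp1 lay below (16% of all genes). The aspirin group was uneven: aspirin 1 was its lowest array for 8 of the 10 genes, with a mean centred level of -0.57, beside -0.08 and -0.09 on aspirin 2 and 3.

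The combination was also set against each drug alone. Over aspirin, 7 genes were higher at an unadjusted p under 0.05 (3.43% of all genes) and had every combination array above every aspirin array (5.47% of all genes). Those 7 are the 8 named above less Ighm. At an adjusted p under 0.05 the count was 0, as it was for all genes (0%), and at an adjusted p under 0.1 it was 3 (0.226% of all genes): Igha at 1.62 ± 0.25 (limma, adjusted p = 0.0967), Derl3 at 0.74 ± 0.12 (adjusted p = 0.0967) and Irf4 at 0.77 ± 0.13 (adjusted p = 0.0974). The median difference was 0.767, beside 0 for all genes. Without combination 3, limma called 704 genes over aspirin, 4 of the 10 among them. Over triptolide, 7 genes were higher at an unadjusted p under 0.05 (3.5% of all genes), 5 of them with no overlap (8.36% of all genes), and limma called 0%. The median there was 0.417, beside 0.019 for all genes, and Tnfrsf17, Derl3 and Irf4 had the smallest p-values, at 0.28 ± 0.08, 0.37 ± 0.12 and 0.40 ± 0.13 with limma's adjusted p at 0.353 for each.

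The mean of the regimens that contain triptolide (combination and triptolide) was also set against the mean of those that do not (aspirin and control). Limma called 0% of genes at an adjusted p under 0.05. The higher direction held 8 of the 10 genes at an unadjusted p under 0.05 (2.76% of all genes) and the lower direction held Prdm1 (5.89% of all genes) at -0.18 ± 0.07. Derl3, at 0.62 ± 0.09 (limma, adjusted p = 0.0741), and Igha, at 1.20 ± 0.19 (adjusted p = 0.0956), were among the 0.155% of genes with an adjusted p under 0.1. They were also the 2 genes of the set in which all 6 triptolide-containing arrays lay above the other 5, as 0.471% of all genes did. The median was 0.576, beside -0.011 for all genes.

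Whether the drugs together differed from the sum of each alone was read from their interaction, the combination minus aspirin minus triptolide plus control. It was above 0 for all 10 genes (52% of all genes), with a median of 0.265 beside 0.01 for all genes, and limma called 0% of genes. The direction was not kept when the Y-linked level described below entered as a covariate. The median was then -0.21, and 6 of the 10 genes lay below 0, Irf4 among them at -0.10 ± 0.37. The SE was larger with the covariate, at 1.25 for Ighm beside 0.59 without it, and at 0.37 for Irf4 beside 0.20. Without the covariate, Irf4 at 0.57 ± 0.20 (unadjusted p = 0.0172), Tnfrsf17 at 0.28 ± 0.11 (unadjusted p = 0.0312) and Igha at 0.85 ± 0.38 (unadjusted p = 0.0466) had an unadjusted p under 0.05, against 1.19% of all genes in that direction, each with limma's adjusted p at 0.895. None of the 10 genes passed the adjusted threshold, so the data call neither a departure from the sum nor its absence.

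The set was not uniform across arrays. Over the 11 arrays, Pearson's r of a gene with the mean of the other members was 0.928 for Mzb1, 0.922 for Igha and Derl3, 0.903 for Jchain, 0.896 for Irf4, 0.825 for Pou2af1, 0.759 for Ighm and 0.666 for Tnfrsf17. It was -0.119 for Xbp1 and -0.439 for Prdm1. The value for Xbp1 rests on combination 1, its lowest array, and was 0.487 without it, whereas that for Prdm1 was -0.383. The mean centred level of the 10 genes was 0.452, 0.449 and 0.447 on the 3 combination arrays, -0.382 and -0.27 on the controls, and between those values on all other arrays but aspirin 1.

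Likeness to the set was measured as Pearson's r over the 11 arrays with that mean level, across 18237 genes. Predicted genes, clones, small RNAs, antibody and T cell receptor segments and the set itself were left out beforehand. Of the genes ranked, those most like the set were Cxcl13 (0.952), Sympk (0.938), Sec11c (0.933), Tespa1 (0.927) and Lax1 (0.926). These arrays share their group labels, so part of any such r is the difference between groups. With group means subtracted the order changed, and the closest genes were P2ry10 (0.922), Ugt2b5 (0.897), Zfp36l2 (0.883), C1qb (0.876) and Cxcl13 (0.864). Cxcl13, a chemokine that draws B cells into lymphoid follicles, is the 1 gene in both lists. It read 11.44, 10.80 and 11.02 with the combination, 11.14, 9.92 and 9.76 with triptolide, 9.19, 9.91 and 10.21 with aspirin, and 9.32 and 9.61 in control, and the combination exceeded control by 1.62 ± 0.40 (limma, adjusted p = 0.104).

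Promoter sequences were at hand for 7 of the 10 genes, from RefSeq on GRCm38.p6, each with 250 bases before and 50 after a transcript start that the table gives. That start is the first base of the gene as RefSeq lists it for 5 of the 7; for Tnfrsf17 it lies 577 bases inside the gene, and for Prdm1 69810 bases inside. They were searched on both strands for the octamer ATGCAAAT, the unfolded protein response element TGACGTGG, its core ACGTGG, the ER stress element (CCAAT and CCACG with 9 bases between), CCACG alone, and the interferon regulatory factor element (GAAA repeated after 2 bases). The core lies inside the unfolded protein response element, and CCACG lies, on the other strand, inside both. Derl3, Pou2af1 and Tnfrsf17 are shown because each holds a match to 1 of the longer motifs, and capitals mark every match. They lie at chr10:75893148-75893447, chr9:51213440-51213739 and chr16:11313559-11313858, all on the plus strand.
Derl3: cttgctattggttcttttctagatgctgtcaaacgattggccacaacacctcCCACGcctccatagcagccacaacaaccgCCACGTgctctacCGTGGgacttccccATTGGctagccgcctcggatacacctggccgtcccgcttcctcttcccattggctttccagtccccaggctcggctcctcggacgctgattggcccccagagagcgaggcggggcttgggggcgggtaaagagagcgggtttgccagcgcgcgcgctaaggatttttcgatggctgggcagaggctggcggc
Pou2af1: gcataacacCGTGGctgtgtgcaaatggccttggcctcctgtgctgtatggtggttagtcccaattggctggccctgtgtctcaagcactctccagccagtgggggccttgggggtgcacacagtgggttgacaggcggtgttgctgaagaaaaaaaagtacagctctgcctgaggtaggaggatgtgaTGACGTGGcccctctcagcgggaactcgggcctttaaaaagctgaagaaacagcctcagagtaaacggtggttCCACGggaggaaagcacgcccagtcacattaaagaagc
Tnfrsf17: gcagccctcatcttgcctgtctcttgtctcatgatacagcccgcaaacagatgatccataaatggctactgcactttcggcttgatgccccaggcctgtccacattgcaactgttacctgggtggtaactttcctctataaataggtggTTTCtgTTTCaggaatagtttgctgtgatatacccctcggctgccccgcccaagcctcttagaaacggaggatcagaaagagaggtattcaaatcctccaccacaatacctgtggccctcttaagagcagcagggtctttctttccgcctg
Positions were counted from the transcript start of each window, with the base at that start as 0. The ER stress element of Derl3 ran on the minus strand between -156 and -138. It was the 1 such match among the 7 promoters and occurs in 0.119% of 32851 promoters. The unfolded protein response element of Pou2af1 lay at -61 to -54, and 0.676% of promoters hold it. The interferon regulatory factor element of Tnfrsf17 lay on the minus strand at -101 to -92 of its window, which is downstream of the first base of the gene, and 3.44% of promoters hold it. The core ACGTGG was found in 2 of the 7 (8.31% of promoters), CCACG in 4 (32.8% of promoters) and the octamer in 0 (1.74% of promoters). A match describes these letters in this window and is not evidence of binding.

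Of 19 other plasma cell genes measured, 14 were higher with the combination than in control, 5 of them and 0 of the lower ones at an unadjusted p under 0.05, with a median of 0.208 and none called. Beside this and the list counts below, 52.8% of all genes were higher, and 3.41% were higher at an unadjusted p under 0.05. Sec11c, a subunit of the signal peptidase that trims secreted proteins, differed by 0.59 ± 0.14 (limma, adjusted p = 0.103). Tnfrsf13b, the receptor TACI, differed by 0.44 ± 0.15, the survival kinase gene Pim2 by 0.33 ± 0.12 and Creld2, an endoplasmic reticulum stress gene, by 0.32 ± 0.12. The general secretory machinery of the endoplasmic reticulum was divided, with 15 of 33 genes higher, 18 lower and a median of -0.025. Sdf2l1, Manf and Ero1b, all of protein folding, differed by 0.38 ± 0.13, 0.25 ± 0.09 and 0.34 ± 0.14, and Ssr3, of the translocon, by -0.40 ± 0.10 (limma, adjusted p = 0.122).

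Mature B cell markers were higher with the combination in 18 of 20 genes (52.8% of all genes). Of these, 8 had an unadjusted p under 0.05 (3.41% of all genes). The median was 0.66 and none was called. Cd37, a B cell tetraspanin, differed by 0.79 ± 0.29, Fcrl1 by 0.70 ± 0.27, Cd24a by 0.64 ± 0.23 and Ralgps2 by 0.50 ± 0.13. Their mean centred level was 1.096, 0.329 and -0.09 on combination 1, 2 and 3, -0.12 and -0.212 on the controls. On combination 3 it was near control, where the 10 plasma cell and antibody genes stood at 0.447. Germinal centre genes, of the site where B cells mature their antibodies, were higher in 4 of 6, with Rgs13 at 0.81 ± 0.32, Gcsam at 0.42 ± 0.13 and Mybl1 at 0.18 ± 0.14, and S1pr2, of B cell retention there, at -0.38 ± 0.13.

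Antibody transport, plasma cell survival and homing signals gave 7 of 13 genes higher and 6 lower, with a median of 0.074. Besides Cxcl13, Ccl19, a lymphoid chemokine, differed by 0.74 ± 0.24 and Ccl28, which attracts IgA-secreting cells to mucosa, by 0.44 ± 0.17. Pigr, the polymeric antibody receptor, read 10.69, 11.53 and 11.56 with the combination, 11.27, 10.47 and 10.21 with triptolide, 10.52, 10.97 and 9.67 with aspirin, and 9.91 and 10.84 in control, a difference of 0.89 ± 0.44 with overlapping groups (limma, unadjusted p = 0.0693). Combination 2 and 3 were its highest arrays.

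Markers of other cell types also differed between the combination and control, with none called. Their counts stand beside 52.8% of all genes higher with the combination. T cell markers were higher in 13 of 13 genes (median 0.22): Il7r, the interleukin 7 receptor, differed by 0.72 ± 0.23, the costimulatory receptors Icos and Cd28 by 0.25 ± 0.12 and 0.34 ± 0.17, and Themis by 0.27 ± 0.11. Airway secretory and mucous genes were higher in 14 of 16 (median 0.908), with levels of 0.491, 1.204 and 0.107 on the combination arrays and -0.423 and -0.225 in control. Among them the antibacterial lectin Reg3g differed by 2.63 ± 0.88, Bpifb1 by 1.95 ± 0.75, the lactoferrin gene Ltf by 1.73 ± 0.60 and the trefoil factor gene Tff2 by 0.93 ± 0.29. Endothelial genes, Cdh5, Plvap, Ednrb and Tek among them, were lower in 15 of 15 (median -0.761; Cdh5 -0.89 ± 0.14, limma, adjusted p = 0.0579), with levels of -0.7, -0.396 and -0.212 on the combination arrays and 0.394 and 0.315 in control. The lung-defining list was lower in 9 of 10 genes (median -0.462) and the neutrophil list higher in 10 of 13 (median 0.22). Cell cycle genes (14 of 14 higher) stood at 2.805 and erythroid genes (6 of 7 higher) at 3.219 on combination 1, and at -0.638 to -0.108 on the other combination arrays. The part of these shifts in the results for the plasma cell and antibody genes was not tested.

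**Figure D3:**
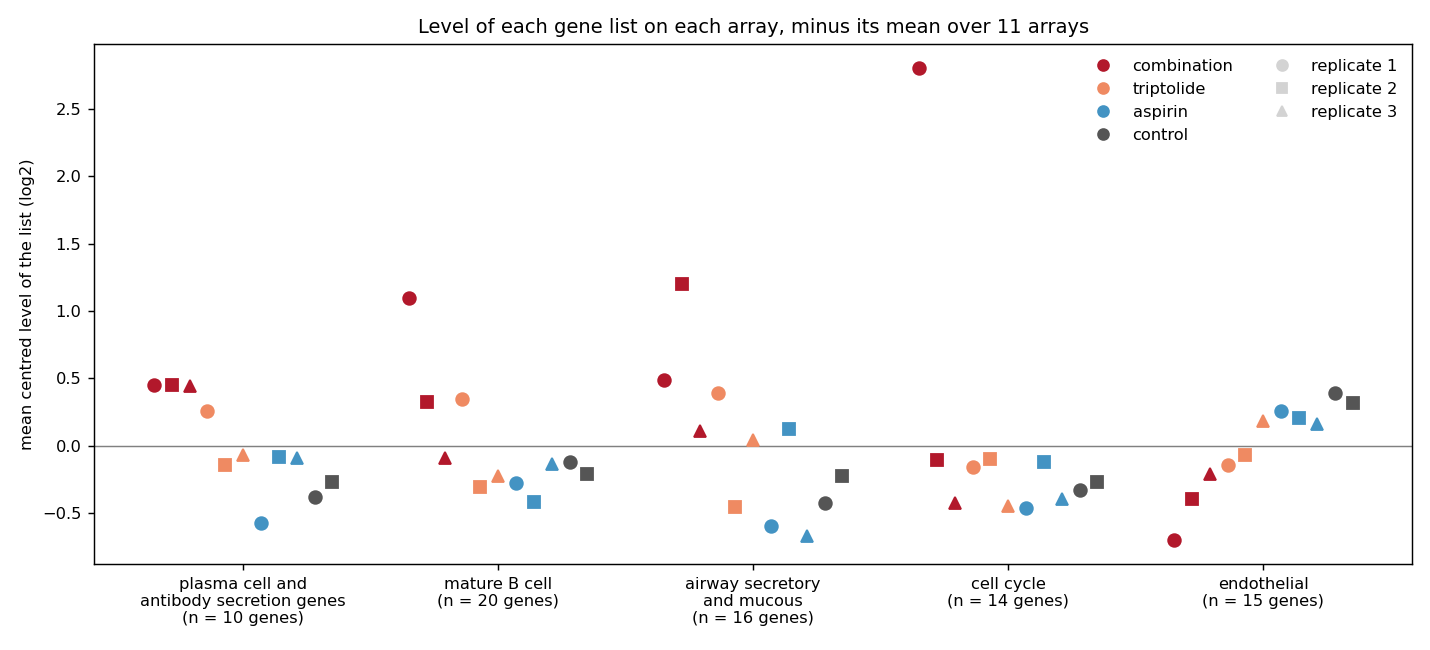
Mean centred log2 level of 5 gene lists (vertical axis) on each of the 11 arrays, grouped by regimen. The 3 combination arrays lie together at 0.447 to 0.452 for the plasma cell and antibody genes, while the mature B cell and cell cycle lists are led by combination 1.

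The whole series is even in level, with array medians of 8.135 to 8.254 and correlations between arrays of 0.9545 to 0.9942. Combination 1 stood apart at 60.2 on the first principal component (45.5% of the variance), with the others between -15.0 and 6.8. Sex-linked genes differed between groups: the mean of Uty, Kdm5d and Eif2s3y, which lie on the Y chromosome, was 5.67 to 6.73 with the combination, 6.55, 9.36 and 9.08 with triptolide, 8.88 to 9.09 with aspirin, and 5.81 to 5.94 in control. The sex-linked gene Xist read 12.262 to 12.803 with the combination and 11.983 and 12.071 in control. It read 6.767 to 6.996 with aspirin, and 12.318, 9.751 and 6.613 with triptolide. Combination and control are thus alike in these genes, whereas aspirin against control, and the combination against aspirin, coincide with them. Triptolide against control, and the combination against triptolide, coincide with them in part, through triptolide 2 and 3. Triptolide 1, at a Y-linked mean of 6.55, lay in the combination's range. It was the highest triptolide array for 8 of the 10 genes. A link was not tested. When this Y-linked mean entered the fit as a covariate, the median of the 10 genes was 0.946 for the combination against control and 0.867 for triptolide against control. It was 0.348 for aspirin against control, 0.263 for the combination against aspirin, 0.137 for the combination against triptolide and -0.21 for the interaction. The Y-linked mean varied little within aspirin and within control. The slope of this covariate thus rests mainly on triptolide 1 beside triptolide 2 and 3. Cldn18 and Aqp5, markers of the alveolar epithelium, read between 11.99 and 13.29 and between 10.57 and 11.88 over the 11 arrays. With the combination they differed from control by -0.80 ± 0.20 and -0.69 ± 0.18, and combination 1 was the lowest array for each.

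Beside the rows that stand for Ighm and Igha, the arrays hold 29 rows for antibody chains, the further Ighm and Igha rows given above among them. Many list several segments, and they were looked at after the values of the 10 genes were seen. Of these, 28 were higher with the combination than in control and 27 had every combination array above both controls, beside 14.2% of the 19938 genes, with a median of 1.274 and a range of -0.239 to 2.551. The 4 rows that include the kappa light chain constant region differed by 1.174 to 1.412 for the combination, with a median of 1.315, and had medians of 0.994 for triptolide and 0.249 for aspirin. The 2 rows of the lambda chain had a median of 1.583 for the combination, and the 8 other heavy chain rows had a median of 1.254. Light and heavy chain rows had medians in the same range. The lowest and the highest of the 29 differences, -0.239 and 2.551, both came from single-symbol rows of kappa variable segments. Ighg3, an IgG heavy chain with a single-symbol row, differed by 0.51 ± 0.44 with overlapping groups. Igll1, of the surrogate light chain, is not among the 29 rows and differed by 0.24 ± 0.13.

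The same 29 rows set the arrays within a group apart. Their mean centred level was 0.565, 0.698 and 0.814 with the combination, 0.782, -0.041 and -0.109 with triptolide, -1.258, 0.055 and -0.279 with aspirin, and -0.833 and -0.395 in control. Triptolide 1 stood with the combination arrays, and aspirin 1 stood lowest of all, as for the 10 genes. Over the 29 rows the median difference from control was 0.864 for triptolide, with 28 higher and 20 wholly above control (9.92% of all genes). It was 0.201 for aspirin, with 20 higher and 2 wholly above (10% of all genes).

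**Figure D4:**
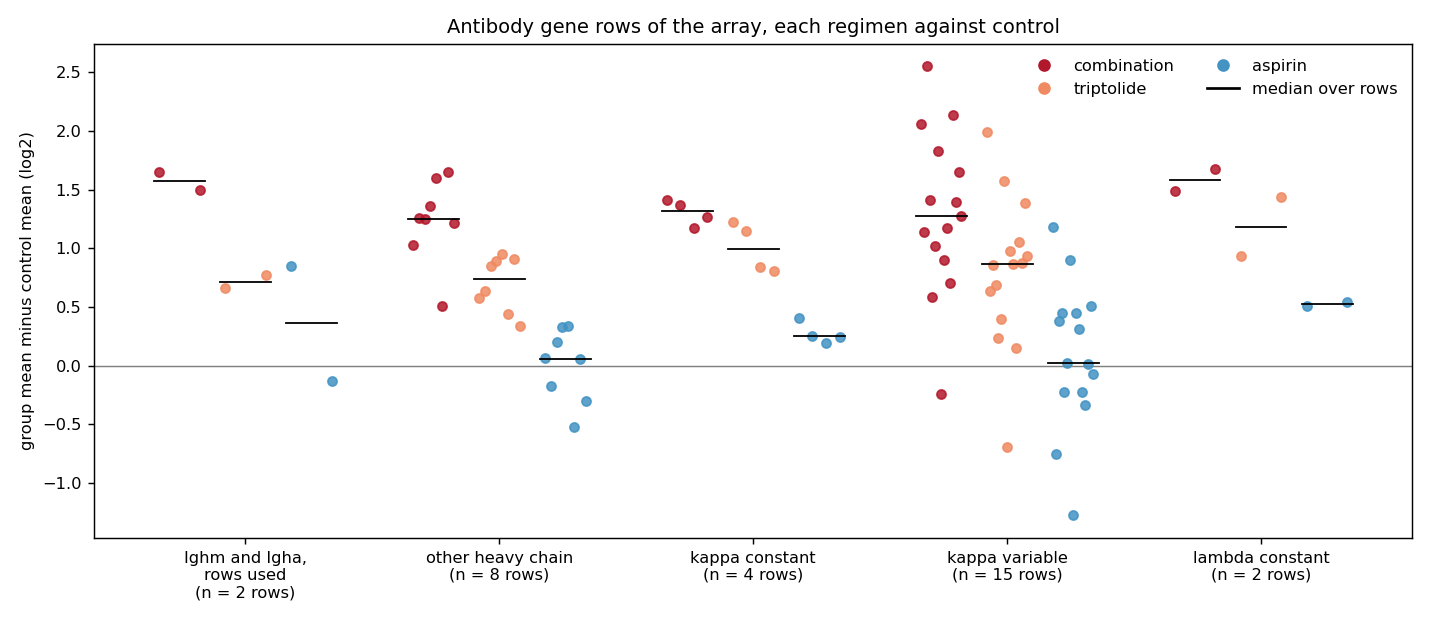
Log2 difference of group means from control (vertical axis) for each antibody chain row, by kind of chain, for the combination, triptolide and aspirin, with 1 point per row and a line at the median. The combination median lies highest in each class, and 1 kappa variable row lies below 0 for the combination.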

How the data were processed

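Lung RNA from 4 groups, read from the sample titles, was hybridised to 11 arrays. The values deposited by the authors are on a log2 scale, 1 per row and array over 35556 rows. RMA and Partek are named, per the submitters' processing notes, with no version. Neither their settings nor the genome build of the array is given in the sources used here. Detection calls were not used, and precision is limited by how many arrays there are.

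The platform annotation gave the names: 21789 rows carried 1 symbol, 1621 several, and 12146 were unnamed here. The row with the highest mean stood for each gene that had several single-symbol rows, which left 19938 genes. One model of the 4 group means was fitted to all genes (limma 3.58.1 under R 4.3.3, functions lmFit and eBayes). It had no covariate, no filter, 7 residual and 3.68 prior degrees of freedom. Tests were two-sided and p-values were adjusted by Benjamini-Hochberg over all genes. The fit was tested on simulated data.

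The 10 genes and the 14 gene lists were chosen with earlier results of these data known. All 10 genes are named. From each list up to 4 genes with the smallest p for the combination against control were to be named, together with the 5 genes most like the set by each measure. Those of the cell cycle, erythroid, neutrophil and lung-defining lists are left out here for brevity, apart from Ltf, Cdh5, Cldn18 and Aqp5. The 29 antibody chain rows were chosen after values were seen. Mean centred levels are each gene's value minus its mean over the 11 arrays, averaged over a list. Same-numbered samples correlated at -0.139 to 0.329 in their deviations from group means, with 6 of 15 pairs above 0.1. This does not settle whether the replicate numbers pair the samples, and the main fit took no pairing. Alternatives were median centring, quantile normalization, a filter on low means, the mean of all rows of a gene, array weights, trend and robust moderation, the Y-linked level as a covariate, the replicate number as a block, and leaving out each array.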

Additional observations from a re-analysis of the deposited data

Results flagged for a closer look

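Irf4 stood out by the interaction of the drugs. Its combination arrays exceeded its triptolide arrays by 0.40 ± 0.13, whereas aspirin alone lay below control at -0.16 ± 0.15. The test of the difference between these effects gave 0.57 (limma, unadjusted p = 0.0172, adjusted p = 0.895), which did not pass. Once the Y-linked level entered the fit it was -0.10 ± 0.37, so its sign turned, and leaving out 1 array gave 0.46 to 0.70. Irf4 was flagged because every aspirin array lay below the control mean and every combination array lay above the triptolide mean. The flag and the test thus use the same values. Groups of 2 or 3 arrays are too small to mark a single high or low array by a test.

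A signal also appeared in array rows outside the 10 genes. Rows that list several symbols did not enter the limma fit, and their differences of group means are given without a test. Some rows with 1 symbol, Ighg3 among them, were among the 19938 genes fitted. Of the 29 antibody chain rows outside the 10 genes, 27 had every combination array above both control arrays, as did 14.2% of the 19938 genes. Many of these rows list the same segments, so their number is not a number of independent measurements.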

How the results depend on the processing

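Of 1316 results for single members under the alternatives, 1224 kept their direction and side of the threshold, 40 newly passed an adjusted p of 0.05, 52 differences that had not passed changed sign, and 0 reversed. Derl3 for the combination against control had the same direction in all 19 alternatives, at 0.81 to 0.90, and passed in 8 of them, with limma's adjusted p between 0.00736 and 0.667. Igha and Mzb1 passed in 3 each.

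Genes called for the combination against control, 0 as reported, numbered 83 with median centring, 3 with quantile normalization, 218 with the filter, 152 with the replicate block, 1704 with array weights, 96 with the Y-linked covariate and 56 with trend and robust moderation. Of the 10 genes, 1, 2, 1, 7, 2 and 1 were then called with median centring, the filter, the replicate block, array weights, the covariate and trend and robust moderation. Array weights also called 10 genes for triptolide against control, 535 and 1 of the 10 for aspirin against control, 873 and 5 of the 10 for the combination against aspirin, 1 for the combination against triptolide, 938 and 7 of the 10 for regimens with against without triptolide, and 16 for the interaction. These weights were estimated gene by gene, and combination 1 had a weight of 0.149 and aspirin 3 one of 5.993. For the combination against aspirin, centring, quantile normalization and trend and robust moderation called 1 gene each and the filter 4. For regimens with against without triptolide, centring called 2 genes, the filter 8 with 1 of the 10, and trend and robust moderation 3.

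Medians of the 10 genes with the Y-linked covariate were 0.867 for triptolide against control, 0.348 for aspirin against control, 0.263 for the combination against aspirin, 0.137 for the combination against triptolide and -0.21 for the interaction; the cause was not tested. Leaving out 1 array gave 0 to 896 genes and 0 to 3 of the 10 for the combination against control, 0 to 3 genes and medians of 0.127 to 0.459 for triptolide against control, and 0 to 4 genes for aspirin against control. It gave 0 to 704 genes and 0 to 4 of the 10 for the combination against aspirin, 0 to 24 genes for the combination against triptolide, 0 to 209 genes and 0 to 2 of the 10 for regimens with against without triptolide, and 0 to 6 genes for the interaction. The highest counts came without combination 3, except for triptolide against control, aspirin against control and the interaction, where they came without triptolide 1. Whether the replicate numbers pair the samples is not settled, as 7 of 11 arrays correlated best with an array of their own number. The replicate block is given as an alternative only.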
